A study of Apis mellifera with 12 samples.

Results

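The 49 loci described here carry the genes of the cytosolic ribosomal proteins of the honeybee, *Apis mellifera*, in RNA-seq data of whole embryos of both sexes. They were chosen by symbol: a single gene name beginning with RpL, RpLP or RpS and a number, with an expression estimate of valid status in every library. The pattern matched 53 of the 17621 loci in the files, and 4 of these, which join the gene for *RpL4*, *RpL8*, *RpL10Ab* or *RpS5a* with a second gene, were left out. The 49 comprised 32 genes of the large subunit, the stalk genes *RpLP0* and *RpLP2*, and 15 genes of the small subunit. The rule used symbols and estimate status, and no level or difference.

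A ribosome consists of a small subunit, which reads the mRNA, and a large subunit, which joins the amino acids, and each is built from ribosomal RNA and a set of proteins of which most occur as a single copy. The stalk of the large subunit, with *RpLP0* at its base, recruits the factors that drive translation. An early insect embryo starts with ribosomes and mRNA from the mother and later transcribes its own ribosomal protein genes. In the fruit fly *Drosophila*, loss of 1 copy of many of these genes gives the Minute phenotype of slow growth and short bristles. Some are made joined to another protein: *RpL40* and *RpS27A* as fusions with ubiquitin, and *RpS30* in flies and mammals as a fusion with a ubiquitin-like protein.

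Female embryos, which are diploid, and male embryos, which are haploid, were of the subspecies *Apis mellifera carnica*. Pools were frozen at ages of 10–15 h, then 25–40 h, then 55–70 h after the eggs were laid, and each sex and age has 2 of the 12 libraries. Poly(A) RNA came from pools of 100, 60 and 30 embryos at the successive ages, drawn from 3 mothers. The study describes its female eggs as laid by naturally mated queens and its male eggs as laid by unmated queens treated with carbon dioxide. If that holds for these pools, sex and type of mother cannot be told apart. The eggs were wild type, collected 5–15 h after laying and held in an incubator, so the lower limit of the youngest age rests on the label. Nothing states that the 2 libraries of a group came from separate collections, so p-values speak of how far these libraries vary, and that may be technical. Ploidy and sex differ together in every comparison of the sexes. In bulk samples, fewer cells of a type and less RNA per cell cannot be told apart.

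Values were FPKM, fragments scaled to transcript length and to all mapped fragments of a library. Differences were taken on the log2(FPKM + 1) scale and tested with limma over the 10105 loci whose mean reached 1 FPKM. A locus was called at a Benjamini–Hochberg adjusted p below 0.05 over all these loci. All 49 ribosomal protein loci passed the filter and none was listed at 0 in any library. FPKM are shares of a library, so the scale matters: between 10–15 h and 25–40 h the median of all loci moved by 0.50 on the log2 scale, and with median-ratio scaling by 0.09. The deposited confidence bounds also limit comparisons between genes. In 30 members the FPKM lay above its own upper bound in all 12 libraries, so levels of different genes are uncertain, by up to about 2.11-fold on this measure alone. Over the libraries the ratio of FPKM to the midpoint of its bounds varied by up to 1.18-fold within a gene, the most for *RpL13*. Depth in reads is unknown. From the width of the bounds, relative depth was 0.895 to 1.23 over the libraries. Replicates correlated at r of 0.932 to 0.988 across loci, which are not independent points. As checks of the source, the 9 yolk and royal jelly protein genes (*Vg*, *Mrjp*) summed to 4.20–17.0 FPKM in every library. Of 5 genes listed for late embryo and larval tissue, 3 rose and 1 fell between 25–40 h and 55–70 h. The median was 0.91 on the log2 scale, and 36.4% of all loci rose and 19% fell. The largest rise of the 5 was that of *TpnT*, the muscle gene troponin T, at 8.11.

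The family held a larger share of the FPKM at 25–40 h than at 10–15 h in both sexes, and after 25–40 h the share was higher again in males, while the female libraries of the later ages overlapped. At 10–15 h the 49 loci held 6.45% and 5.43% of all FPKM in the female and 4.68% and 5.29% in the male libraries. Their share at 25–40 h was 20.8% and 25.4% in the female libraries, against 11.8% and 14.0% in the male ones, without overlap. At 55–70 h the shares were 25.6% and 21.7% in the female and 20.3% and 19.9% in the male libraries. The median member stood at 359.9 and 269.6 FPKM in the female and 255 and 294 FPKM in the male libraries at 10–15 h. By 25–40 h it stood at 2521 and 2255 FPKM in females, against 1044 and 1304 FPKM in males. At 55–70 h it stood at 3105 and 2609 FPKM in females, against 2063 and 2347 FPKM in males. Each library at 25–40 h and later had a higher median member than any at 10–15 h.

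**Figure D1:**
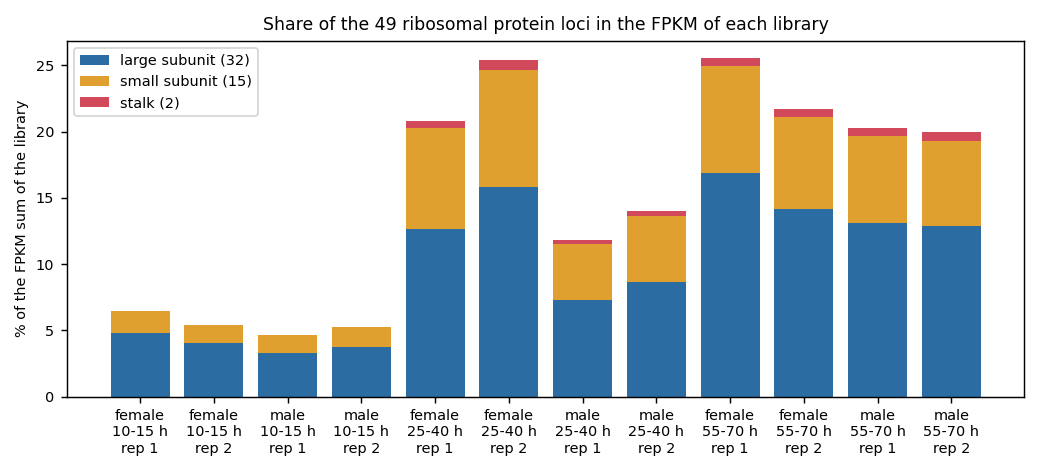
Share of the summed FPKM of each library, in percent, held by the ribosomal protein loci, stacked by large subunit, small subunit and stalk, for the 12 libraries by age with female left of male. Bars are 4.68% to 6.45% at 10–15 h, and at 25–40 h the female bars of 20.8% and 25.4% stand above the male bars of 11.8% and 14.0%.

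The members were unequal at first and drew closer together. The SD of log2 values over the 49 was 1.56 to 1.70 in the 10–15 h libraries and 0.93 to 1.14 in the later ones. Between 5 and 8 members were under 100 FPKM in each 10–15 h library and none in a later one. Over 1000 FPKM there were 5 to 9 members in each 10–15 h library. By 25–40 h that number was 45 and 45 in the female, against 27 and 29 in the male libraries, and 45 in every 55–70 h library.

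**Figure D2:**
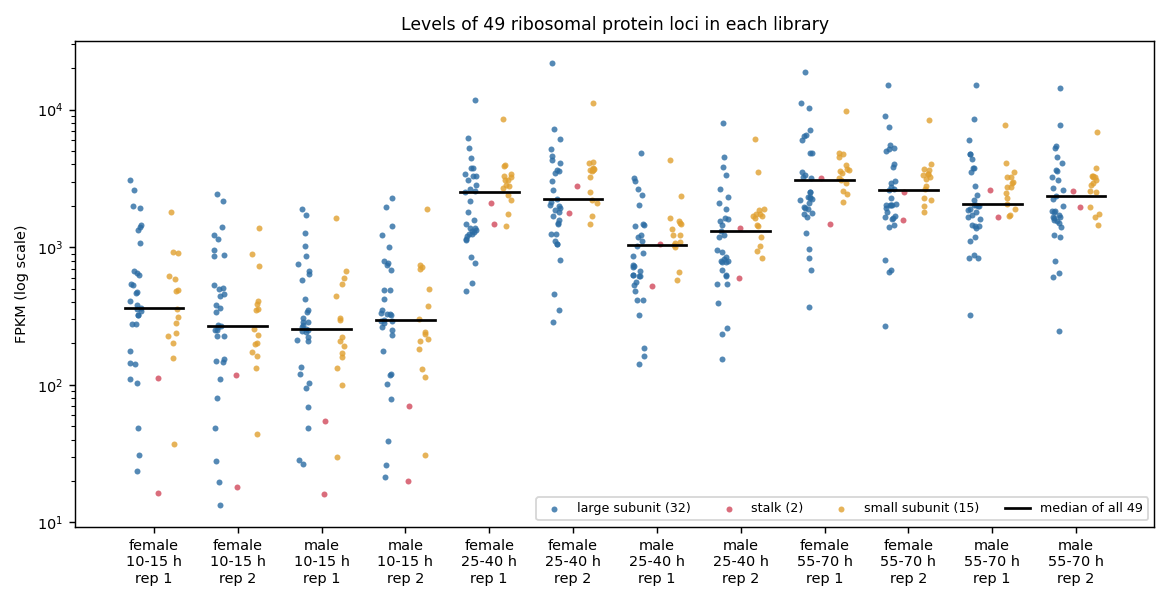
FPKM of each of the 49 loci on a log axis in each of the 12 libraries, ages from left to right and female left of male, coloured by subunit, with a black bar at the median of the 49. The spread narrows after 10–15 h, where 5 to 8 loci lie under 100 FPKM, and the medians of 2521 and 2255 FPKM in females at 25–40 h lie above those of 1044 and 1304 FPKM in males.

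By mean over the 12 libraries, *Rpl41*, which encodes a very short peptide and is the shortest locus at 718 bases, was the highest of the large subunit at 9280.3 FPKM, ahead of *RpL14* at 5299 FPKM. The lowest of the large subunit were *RpL29* at 233 and *RpL6* at 377 FPKM. In the small subunit *RpS30* averaged 4007 FPKM, against 1016 FPKM for *RpS26*, whose protein lies by the exit of the mRNA channel, and 1205 FPKM for *RpS7*. Given the bounds, gaps narrower than about 2.11-fold are not firm, and the bounds do not show that wider ones are. By mean, *Rpl41*, *RpL29* and *RpL6* lay farther than this from the middle of the family. At 10–15 h, however, *Rpl41* lay within 1 log2 unit of the family median in each library, and *RpL6* did in both male libraries. The loci lay on 15 chromosomes with 9 on chromosome 1 and no overlapping pair, and 35 of the 49 had a single start site. Base positions are as deposited, and the sources used here name no build for them. Chromosome numbers were derived from the sequence names. Of 5643 single-name loci matched to RefSeq by symbol, 98.97% lay on the same linkage group. Only 5 of these were members, and all 5 did. Most spans were short, with a median of 1845 bases. The longest was *RpL35A* (chromosome 9, 5622115 to 5656546), which spans 34432 bases.

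All 49 members rose between 10–15 h and 25–40 h, where 47.6% of all loci tested were higher and 23.6% lower. The differences ran from 0.44 to 5.93 on the log2 scale, with a median of 2.13 for the members against 0.50 for all loci. The median was 1.82 in the large subunit, 3.0 in the small subunit and 5.00 for the stalk pair. With median-ratio scaling 43 members were higher and none lower, and with quantile normalization 44 were higher and 1 lower. Median-ratio scaling also evened the background to 3886 loci higher and 3684 lower, and quantile normalization to 3761 and 3414, against 4812 and 2383.

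The steepest rises began from very low levels. *RpS20*, in the head of the small subunit, had 37.2 and 43.9 FPKM in the female and 30.1 and 30.8 FPKM in the male libraries at 10–15 h. At the middle age it had 3087 and 3656 FPKM in the female, against 1219 and 1688 FPKM in the male libraries, and at 55–70 h 4824 and 3679 FPKM in the female and 3549.9 and 3241 FPKM in the male libraries. None of the 4 youngest libraries came near a later one, and *RpS20* (chromosome 8, 3561860 to 3562700) rose by 5.93 (standard error 0.15, adjusted p = 1.88e-09). *RpLP0*, the base of the stalk, had 16.4 and 18.1 FPKM in the female and 16.1 and 20.0 FPKM in the male libraries at 10–15 h. The 25–40 h libraries gave 1476 and 1764 FPKM in the female, against 527 and 598 FPKM in the male libraries, and at 55–70 h 1467 and 1585 FPKM in the female and 1653 and 1968 FPKM in the male libraries. *RpLP0* (chromosome 10, 4873084 to 4876515) was the lowest or second lowest member in each 10–15 h library and stayed below the family median later, with a rise of 5.68 (standard error 0.14, adjusted p = 1.88e-09) over the first interval. *RpL15*, of the large subunit, had 30.9 and 13.5 FPKM in the female and 26.6 and 26.1 FPKM in the male libraries at 10–15 h, and 1339.7 and 1682 FPKM in the female, against 675 and 954 FPKM in the male libraries at 25–40 h. At 55–70 h it had 1672 and 1593 FPKM in the female and 1438 and 1542 FPKM in the male libraries, so most of its change was over by 25–40 h. *RpL15* (chromosome 4, 9737839 to 9740022) rose by 5.50 (standard error 0.23, adjusted p = 1.25e-08). *RpL3*, which lies close to the site of peptide bond formation, had 23.8 and 19.6 FPKM in the female and 28.6 and 21.5 FPKM in the male libraries at 10–15 h. By 25–40 h it had 1119.8 and 1057 FPKM in the female, against 410.4 and 538 FPKM in the male libraries, a rise of 4.89 (standard error 0.16, adjusted p = 4.54e-09). These 4 loci, like *RpL29*, lay under 50 FPKM in each 10–15 h library, and the 4 exceeded 400 FPKM in all later libraries.

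The other stalk gene, *RpLP2*, which sits on *RpLP0* and contacts elongation factors, had 112 and 117 FPKM in the female and 54.6 and 70.5 FPKM in the male libraries at 10–15 h. At the middle age it had 2088 and 2797 FPKM in the female, against 1049 and 1391 FPKM in the male libraries, and at 55–70 h 3201 and 2529 FPKM in the female and 2612 and 2571 FPKM in the male libraries. It rose by 4.32 (standard error 0.15, adjusted p = 5.99e-09), so both stalk genes were among the 6 largest rises. *Rpl41* had 542 and 529.7 FPKM in the female and 242 and 349 FPKM in the male libraries at 10–15 h, and 11786 and 21882 FPKM in the female, against 4847 and 8014 FPKM in the male libraries at 25–40 h. Unlike *RpLP2* it lay near the family median at first, and its rise of 4.66 (standard error 0.22, adjusted p = 2.6e-08) made it the highest member of each library from 25–40 h on.

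At the other end stood genes that were already abundant. *RpL27A* had 1346 and 1219.8 FPKM in the female and 636 and 685 FPKM in the male libraries at 10–15 h. The 25–40 h libraries gave 1384 and 2147 FPKM in the female, against 870.5 and 925 FPKM in the male libraries, and at 55–70 h 1751 and 1941 FPKM in the female and 2004 and 1987 FPKM in the male libraries. The 2 ages first compared overlapped within the pooled sexes, and the rise of 0.44 (standard error 0.14, adjusted p = 0.0159) was lost without female 25–40 h replicate 2 (0.28, adjusted p = 0.0543) or male 10–15 h replicate 1 (0.41, adjusted p = 0.0549). It turned negative with median-ratio scaling (-0.23) and with quantile normalization (-0.29). *RpL31*, at the exit of the tunnel through which the new protein leaves, had 1411 and 959 FPKM in the female and 865 and 998 FPKM in the male libraries at 10–15 h. By 25–40 h it had 2182 and 2255 FPKM in the female, against 1184 and 1182 FPKM in the male libraries, and the rise of 0.64 (standard error 0.13, adjusted p = 0.00143) also turned negative under both scalings (-0.03 and -0.15). *RpL13* had 2594 and 2170.3 FPKM in the female and 1717 and 1972 FPKM in the male libraries at 10–15 h. By FPKM it stood behind only *RpL36A* in each library, a rank within the uncertainty between genes. *RpL13* had 3793 and 5199 FPKM in the female, against 2659.7 and 3370.1 FPKM in the male libraries at 25–40 h, a rise of 0.80 (standard error 0.15, adjusted p = 0.000583).

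**Figure D3:**
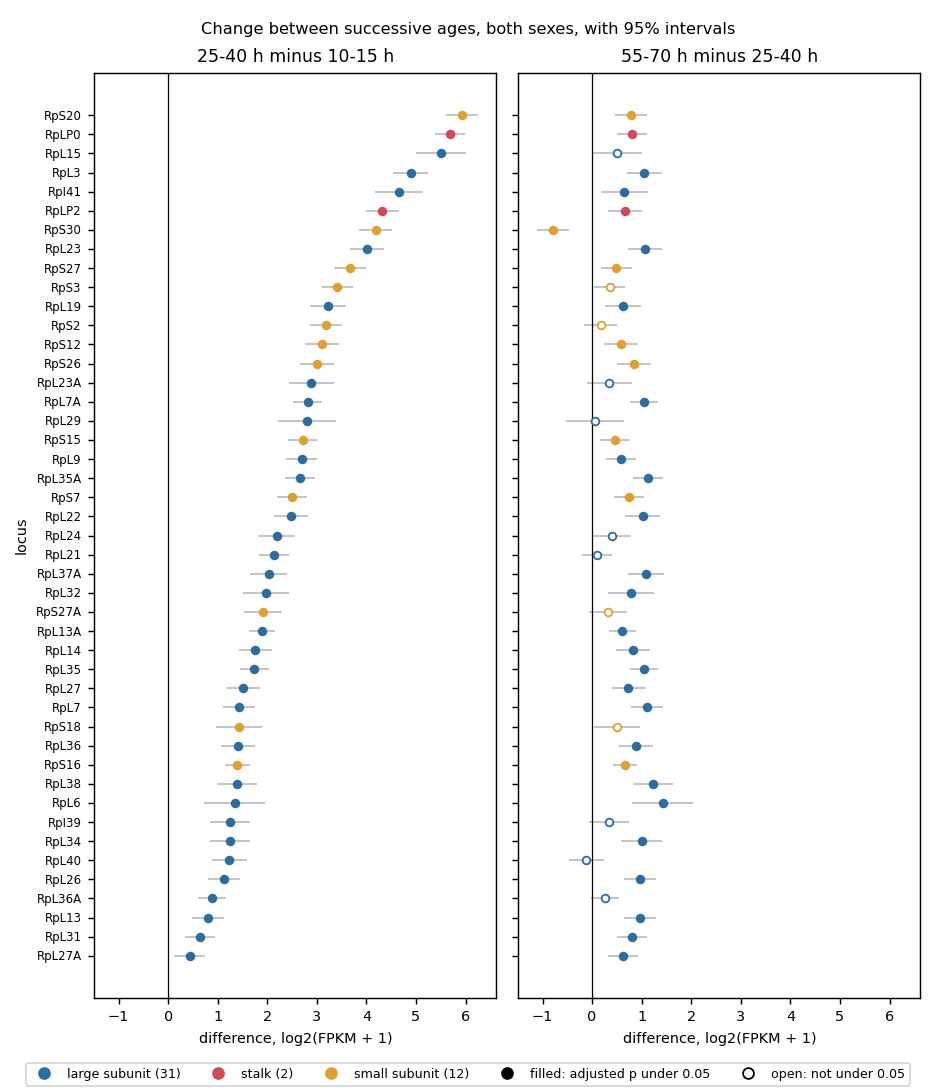
Differences in log2(FPKM + 1) between successive ages, averaged over the sexes, for 45 of the 49 loci, each with its 95% interval from limma, ordered by the first difference and coloured by subunit. Filled points have an adjusted p under 0.05. All 45 are filled and positive on the left, from 0.44 for *RpL27A* to 5.93 for *RpS20*, and *RpS30* at -0.79 is the only filled negative point on the right.

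From 25–40 h to 55–70 h, 36 members rose, 1 fell and 12 passed in neither direction, against 36.4% of all loci higher and 19% lower. The median was 0.69 for the members and 0.23 for all loci. By subunit, 24 of 32 large subunit genes, both stalk genes and 10 of 15 small subunit genes rose. With median-ratio scaling 21 rose and 1 fell, and the background was 2990 loci higher and 3096 lower, against 3674 and 1920.

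The single fall was that of *RpS30*, the gene of the ubiquitin-like fusion. *RpS30* (chromosome 5, 10261668 to 10264766) had 486 and 404 FPKM in the female and 305 and 377 FPKM in the male libraries at 10–15 h. At the middle age it had 8590.0 and 11114 FPKM in the female, against 4288 and 6111 FPKM in the male libraries, and at 55–70 h 4561 and 3995 FPKM in the female and 4113 and 3735 FPKM in the male libraries. It stood second in the family behind *Rpl41* in each 25–40 h library. In both sexes each 55–70 h library lay below each 25–40 h library, in males by a narrow margin. The change was -0.79 (standard error 0.15, adjusted p = 0.00105), and it kept its call without any 1 of the 12 libraries. *RpL40*, a ubiquitin fusion gene, had 4482 and 4339 FPKM in the female, against 2014 and 2094 FPKM in the male libraries at 25–40 h, and 3340.4 and 3012 FPKM in the female and 2198 and 2709.6 FPKM in the male libraries at 55–70 h. Its difference was -0.11 (standard error 0.16, adjusted p = 0.569), and the later female libraries lay below the earlier ones while the later male libraries lay above them. *RpL29*, which mice can lack and live, had 764 and 349 FPKM in the female, against 163 and 153 FPKM in the male libraries at 25–40 h, and 368 and 267 FPKM in the female and 322 and 248 FPKM in the male libraries at 55–70 h, a difference of 0.06 (standard error 0.26, adjusted p = 0.866). Female 25–40 h replicate 1 was more than 2 times the other libraries of that age for this gene.

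Among the largest late rises were those of *RpL6* and *RpL38*. *RpL6* had 103 and 48.7 FPKM in the female and 135 and 175 FPKM in the male libraries at 10–15 h. The 25–40 h libraries gave 477 and 288 FPKM in the female, against 143 and 258 FPKM in the male libraries, and at 55–70 h 681 and 688 FPKM in the female and 880.5 and 651 FPKM in the male libraries. *RpL6* rose by 1.35 (standard error 0.28, adjusted p = 0.00124) over the first interval and 1.43 (standard error 0.28, adjusted p = 0.00133) over the second, so neither interval held most of its change. *RpL38*, whose loss in mice alters the axial skeleton, had 547 and 455 FPKM in the female, against 184 and 234 FPKM in the male libraries at 25–40 h, and 978 and 659 FPKM in the female and 834 and 604 FPKM in the male libraries at 55–70 h. *RpL38* rose by 1.23 (standard error 0.18, adjusted p = 0.000196), and as for *RpL6* no 25–40 h library reached the level of any at 55–70 h.

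To show which members moved unlike the bulk of the family, each value was set against the median of the 49 in the same library. On this relative scale 16 members gained and 26 lost ground over the first interval, while 6.58% of all loci gained and 82% lost. The median subtracted is that of the 49 themselves, so members lie on both sides of it by construction. The shares of all loci show how other loci moved against the family and are no background for the member counts. The gains were those of 6 of 32 large subunit genes, both stalk genes and 8 of 15 small subunit genes, and the losses those of 21 large and 5 small subunit genes. *RpS20*, *RpLP0*, *RpL15* and *RpL3* gained most, by 3.42, 3.17, 2.99 and 2.38 log2 units. *RpL27A*, *RpL31*, *RpL13* and *RpL36A* changed by -2.07, -1.87, -1.71 and -1.62. *RpL36A*, whose protein lies at the exit site for used tRNA, had the highest FPKM of the family at 10–15 h, with 3081 and 2431 FPKM in the female and 1905 and 2269 FPKM in the male libraries. That lead was narrower than the uncertainty between genes. At 55–70 h *RpL36A* had 6044 and 5241 FPKM in the female and 4737 and 5305 FPKM in the male libraries. It thus lost ground in the family while its FPKM rose. Over the second interval 14 members gained and 5 lost ground, while 20.2% of all loci gained and 39.8% lost. *RpL7*, *RpL6* and *RpL35A* were among the gains of smallest p, at 0.53, 0.84 and 0.53. *RpS30*, *RpL40*, *RpL21*, *RpS2* and *RpL36A* lost, at -1.37, -0.70, -0.49, -0.41 and -0.32. The 14 gains became 6 without female 25–40 h replicate 1, 7 without male 55–70 h replicate 1 and 9 without either female 55–70 h replicate 1 or male 25–40 h replicate 1. The 5 losses became 3 without female 55–70 h replicate 1, male 25–40 h replicate 1 or male 55–70 h replicate 2.

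Most members nevertheless correlated with the family median over the libraries, though r does not measure how far a member moved against it. Across the 12 libraries, which share 3 ages, the correlation of a member with the family median had a median r of 0.98 over the 49 and was lowest, at 0.74, for *RpL27A*. The range of a member's relative value was widest for *RpLP0* (4.12), *RpS20* (4.02) and *RpL15* (3.80), whose r was 0.985, 0.986 and 0.980. It was narrowest for *RpL9* (0.59), *RpS7* (0.69) and *RpL24* (0.79). *RpL9* had 110.1 and 80.6 FPKM in the female and 68.97 and 78.4 FPKM in the male libraries at 10–15 h, and 845 and 811 FPKM in the female, against 324 and 393 FPKM in the male libraries at 25–40 h. At 55–70 h it had 836 and 812 FPKM in the female and 835 and 789.5 FPKM in the male libraries, always below the family median. *RpS7* had 282 and 256 FPKM in the female and 160.1 and 182 FPKM in the male libraries at 10–15 h, 1735 and 2083 FPKM in the female, against 660.0 and 936 FPKM in the male libraries at 25–40 h, and 2136 and 1995 FPKM in the female and 2063 and 1975 FPKM in the male libraries at 55–70 h. Both thus stayed within 1 log2 unit of a fixed distance from the family median over both sexes and all ages.

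**Figure D4:**
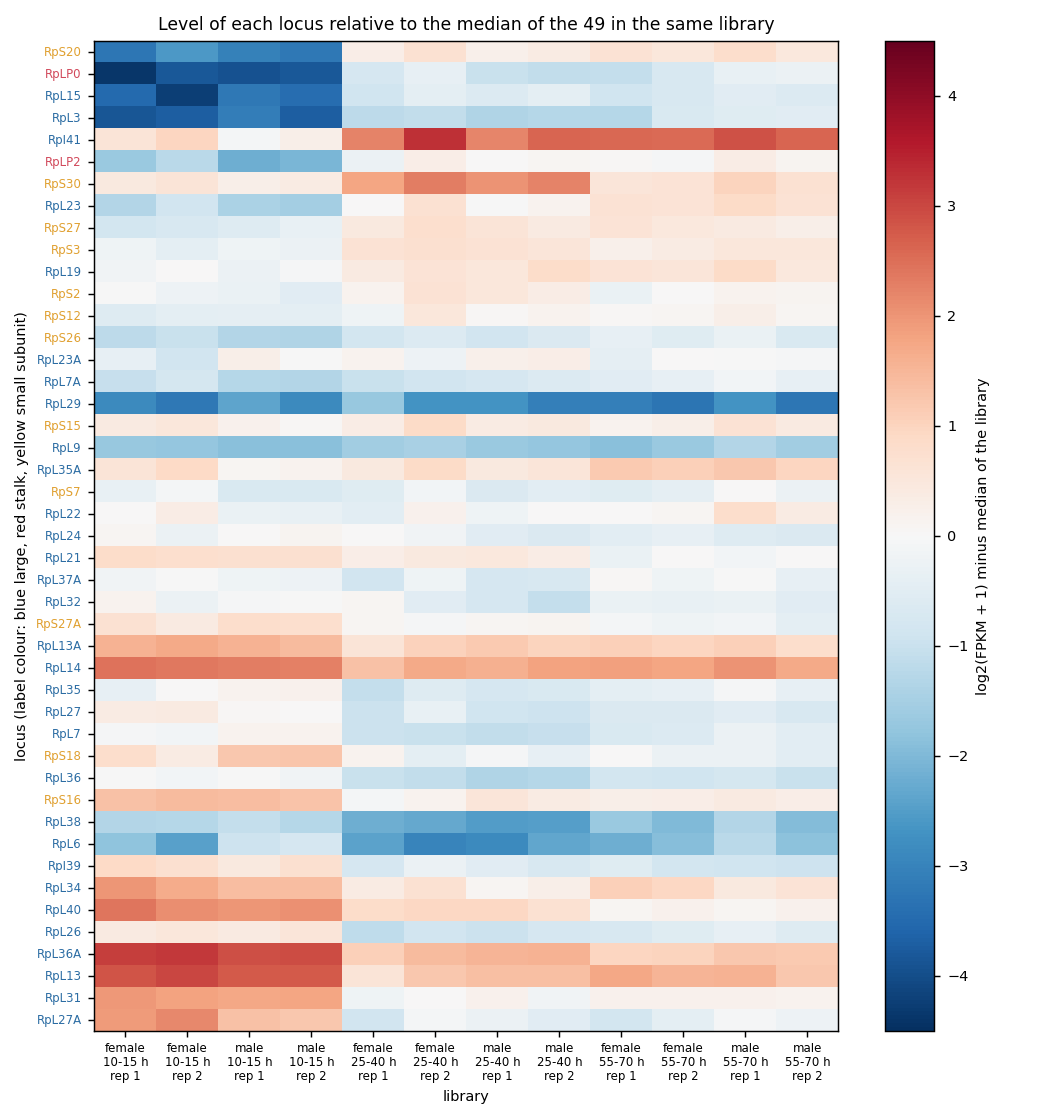
Heat map of log2(FPKM + 1) minus the median of the 49 in the same library for 45 of these loci, ordered from the largest to the smallest rise between 10–15 h and 25–40 h and libraries by age with female left of male. *RpS20*, *RpLP0*, *RpL15* and *RpL3* are dark blue at 10–15 h alone, *RpL36A* and *RpL13* are red there, and *RpS30* is red at 25–40 h and paler at 55–70 h.

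At 10–15 h few members differed between the sexes. *RpLP2*, *RpL27A* and *RpL35A*, 3 of 49, were higher in female embryos, and no member was lower, where 1.84% of all loci were higher and 7.23% lower. The median difference was 0.32 for the members and -0.11 for all loci. *RpLP2* had the values given above and differed by 0.88 (standard error 0.22, adjusted p = 0.0367). *RpL27A* differed by 0.96 (standard error 0.20, adjusted p = 0.0223). *RpL35A*, a gene mutated in some human cases of Diamond–Blackfan anaemia, had 535 and 504 FPKM in the female and 271 and 325 FPKM in the male libraries, and differed by 0.80 (standard error 0.19, adjusted p = 0.0333). In each of the 3 genes both female libraries exceeded both male libraries. Over the family this held for 23 members, against 19.4% of all loci, and the reverse for 3 members, against 42.5% of all loci. These calls were lost without each of the 4 libraries of 10–15 h in turn, and that of *RpLP2* also without either male 55–70 h library. Over all loci, too, few calls were left without female 10–15 h replicate 2 or either male 10–15 h library. The member median was 0.08 without female replicate 1 of this age and 0.50 without female replicate 2. It was 0.22 without male replicate 1 and 0.41 without male replicate 2. Fitted on the 4 libraries of 10–15 h alone, limma called 0 members and 0 of all loci, with 13 members at an unadjusted p below 0.05. Scaling raised the count of members to 7 (median-ratio) or 14 (quantile). With median-ratio scaling the background was 726 loci higher and 1098 lower, and with quantile normalization 373 and 631, against 186 and 731. Of the 8 tested genes of the mitochondrial genome 3 were also called higher in females at this age, and the 8 summed to 12833 and 15250 FPKM in the female and 5921 and 4788 FPKM in the male libraries. Their part in the result was not tested. *RpL6* had 103 and 48.7 FPKM in the female and 135 and 175 FPKM in the male libraries, and its difference of -1.10 (standard error 0.39, adjusted p = 0.103) did not pass.

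At 25–40 h all 49 members had both female libraries above both male libraries, against 27.7% of all loci, while 23.6% of all loci had the reverse and no member did. By limma 43 were higher in females and none lower, where 7.96% of all loci were higher and 6.68% lower, and 48 had an unadjusted p below 0.05. The differences ran from 0.41 to 1.72, and the median was 1.09 against -0.03 for all loci. By subunit the medians were 1.05 for the large subunit, 1.26 for the stalk and 1.09 for the small subunit. The calls were 27 of 32 large, both stalk and 14 of 15 small subunit genes. Rescaling to the same sum gave 42 calls, all among the 43. Median-ratio scaling gave 41, of which 39 were among the 43, and quantile normalization 18, all among them. Rescaling to the same sum turned the background to 646 loci higher and 1054 lower, against 804 and 675. It was 960 and 846 with median-ratio scaling, and 904 and 784 with quantile normalization. The size of the difference also depended on scale. The member median was 1.14 with median-ratio scaling, 0.88 rescaled to the same sum and 0.51 with quantile normalization. Fitted on the 4 libraries of 25–40 h alone, limma called 0 members and 0 of all loci, with 44 members at an unadjusted p below 0.05. The count also fell without male 25–40 h replicate 1 or female 25–40 h replicate 2, where calls over all loci fell too. Without the first of these the member median was 0.96, against -0.09 for all loci. Without the second it was 1.02, against 0.15.

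*RpL32*, a common reference gene in insect expression studies, had 2657 and 1573 FPKM in the female, against 626 and 617 FPKM in the male libraries at 25–40 h. The 2 female libraries themselves lay far apart, and the difference between the sexes was 1.72 (standard error 0.30, adjusted p = 0.00393). *RpL29* had 764 and 349 FPKM in the female, against 163 and 153 FPKM in the male libraries, a difference of 1.70 (standard error 0.37, adjusted p = 0.0126), with 1 female library well above the other. *RpL24*, at a bridge between the subunits, had 2521 and 2038 FPKM in the female, against 733 and 824 FPKM in the male libraries, a difference of 1.54 (standard error 0.24, adjusted p = 0.00227). *RpLP0* differed by 1.52 (standard error 0.19, adjusted p = 0.000758) and *RpLP2* by 1.0 (standard error 0.22, adjusted p = 0.0123). Of these 5 genes, *RpL24*, *RpL32* and *RpLP0* kept their calls without male 25–40 h replicate 1 and without female 25–40 h replicate 2.

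Among the smallest differences were those of *RpL13* and *RpS16*. *RpL13* had 3793 and 5199 FPKM in the female, against 2659.7 and 3370.1 FPKM in the male libraries, with 0.57 (standard error 0.21, adjusted p = 0.101), which did not pass. Its 95% interval reached from 0.10 to 1.03. *RpS16*, which reaches towards the tRNA that holds the new protein, had 2385 and 2509.9 FPKM in the female, against 1511 and 1683 FPKM in the male libraries, with 0.62 (standard error 0.16, adjusted p = 0.0244). That difference became -0.07 with quantile normalization. *RpL6*, *RpL15* and *RpL23A* also did not pass, with differences of 0.95, 0.90 and 0.73. Relative to the family median in the same library, 3 members were higher in females, among them *RpL32* (0.69) and *RpL24* (0.51), and 2 were lower, among them *RpS16* (-0.41). Of all loci, 1.47% were higher and 63.7% lower on that scale, which is no background for members centred on their own median. The 3 became 1 without male 25–40 h replicate 1 and 0 without male 25–40 h replicate 2, and the call of *RpS16* was lost in 10 of the 12 fits without 1 library.

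The libraries of this age also differed in their likeness to the other ages. Over the loci that are not members, the female 25–40 h libraries correlated with the mean 10–15 h profile at r of 0.653 and 0.641, against 0.772 and 0.734 for the male libraries. With the mean 55–70 h profile r was 0.765 and 0.783 for the female libraries, against 0.690 and 0.707 for the male ones. These correlations run across loci, which are not independent. The part of this in the sex difference was not tested.

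**Figure D5:**
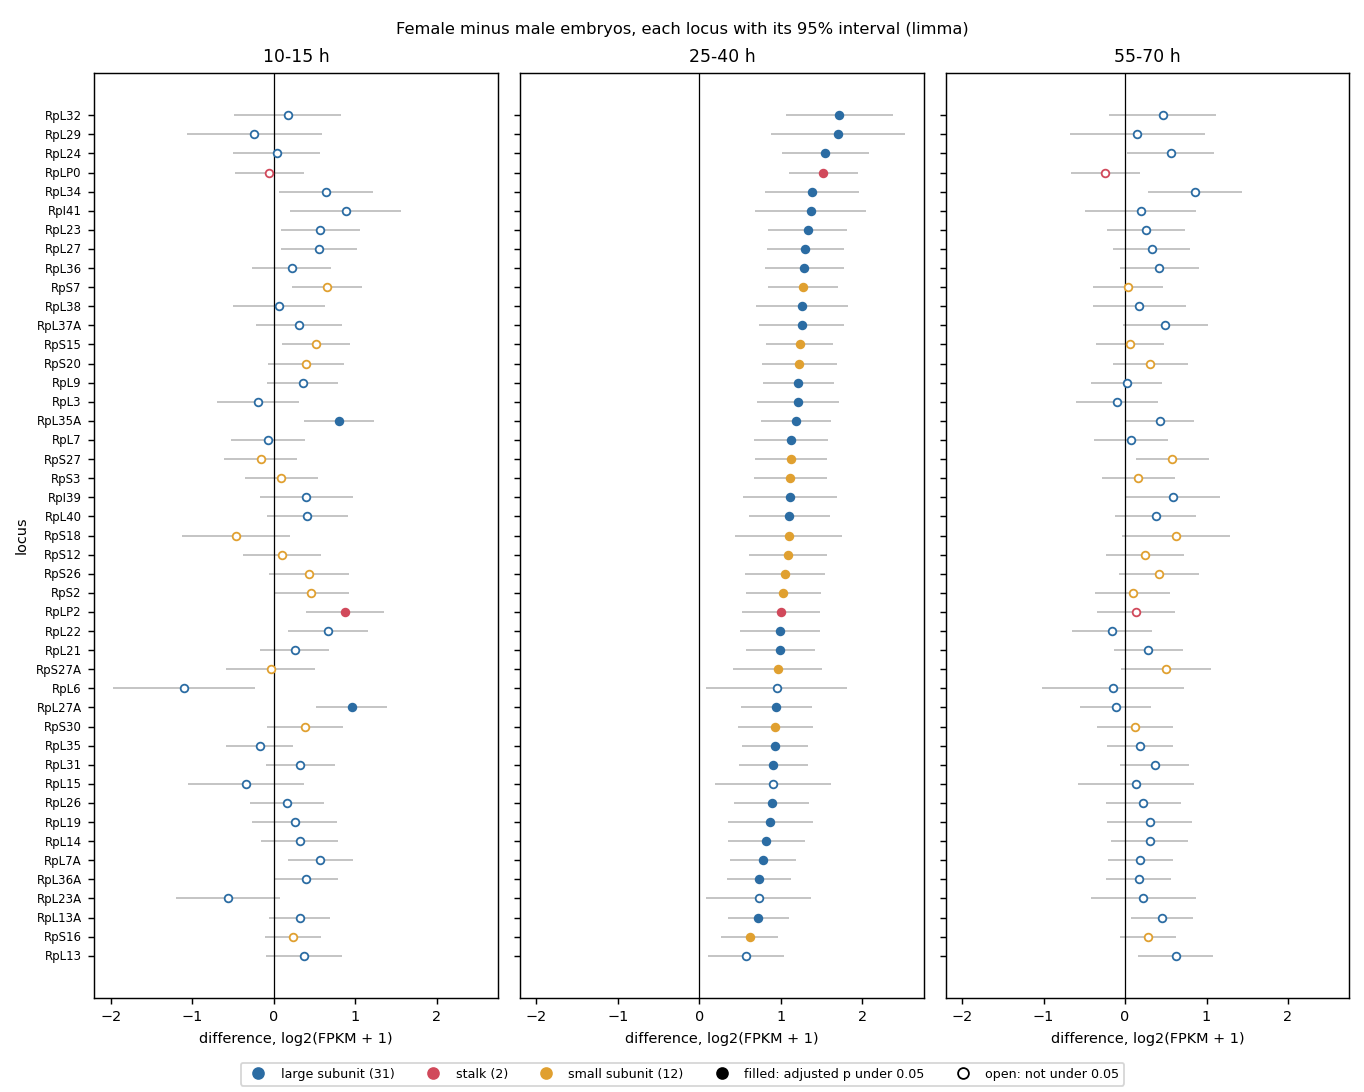
Female minus male difference in log2(FPKM + 1) at 10–15 h, 25–40 h and 55–70 h for 45 of the 49 loci, each with its 95% interval from limma, in the same order in all panels and coloured by subunit. Filled points have an adjusted p under 0.05: 3 at 10–15 h, 41 at 25–40 h and 0 at 55–70 h, and all 45 points lie right of 0 at 25–40 h.

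At 55–70 h no member passed in either direction by limma, with 6 at an unadjusted p below 0.05, and no other setting or left-out library gave a call in this count. Of all loci, 0.327% were higher and 0.317% lower, or 33 and 32, and with median-ratio scaling 35 and 12. The median was 0.25 for the members and -0.19 for all loci, and 44 of the 49 differences were positive. With median-ratio scaling the medians were 0.55 and 0.05, and with quantile normalization 0.06 and -0.05. Both female libraries exceeded both male libraries in 33 members, against 13.2% of all loci, and the reverse held for 2, against 35.4% of all loci. *RpL34* had the smallest p, with 6575 and 4964 FPKM in the female, against 2789 and 3562 FPKM in the male libraries and a difference of 0.86 (standard error 0.26, adjusted p = 0.148). It was chosen after its values were seen. *RpLP0* had -0.24, with 1467 and 1585 FPKM in the female, against 1653 and 1968 FPKM in the male libraries, the largest difference towards males.

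The test of whether the sex difference itself changed with age passed for fewer members. From 10–15 h to 25–40 h it grew in 7 members and shrank in none, against 4.21% of all loci with growth and 3.29% with a decrease, and *RpLP0*, *RpL24*, *RpL3*, *RpS27*, *RpL7* and *RpL35* were among them. *RpLP0* had the smallest adjusted p of these, with 1.58 (standard error 0.27, adjusted p = 0.00842). The median over the 49 was 0.74, against 0.23 for all loci. From 25–40 h to 55–70 h it fell in 9 members and rose in none, against 5.54% of all loci with a fall and 2.95% with a rise, and *RpLP0*, *RpL3*, *RpS7*, *RpL9*, *RpL22*, *RpL27A* and *RpS15* were among them. *RpLP0* again led, with -1.76 (standard error 0.27, adjusted p = 0.00495), and the median over the 49 was -0.81, against -0.16 for all loci. The 2 tests share the 25–40 h libraries. The counts moved with single libraries, as did the number of calls over all loci. The 7 became 18 without female 10–15 h replicate 1 and 1 or 2 without female 10–15 h replicate 2, either male 10–15 h library or male 25–40 h replicate 1. The 9 became 1 without male 25–40 h replicate 1, 2 without female 55–70 h replicate 1 or male 55–70 h replicate 1, 3 without female 25–40 h replicate 2 or female 55–70 h replicate 2, and 5 without either male 10–15 h library or male 55–70 h replicate 2.

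Averaged over the 3 ages, 37 members were higher in females and none lower, where 3.75% of all loci were higher and 8.18% lower, with a median of 0.52 against -0.14. Median-ratio scaling gave 45 members, and 820 loci higher and 749 lower, against 379 and 827. Among the 12 members that did not pass were *RpL3*, *RpL6*, *RpL7*, *RpL15*, *RpL23A*, *RpL29*, *RpL35*, *RpL38*, *RpS18* and *RpS27A*. The count of members fell most without male 10–15 h replicate 1 or female 55–70 h replicate 1, where the member median was 0.49 and 0.47. It fell less far without female 25–40 h replicate 2, male 10–15 h replicate 2, male 25–40 h replicate 1 or male 55–70 h replicate 1. Calls over all loci fell in each of these fits too.

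Other genes of translation were described by symbol lists. Of all loci 47.6% rose and 23.6% fell over the first interval, and 36.4% rose and 19% fell over the second. Of 47 tested genes of mitochondrial ribosomal proteins, which build the separate ribosome of the mitochondrion, 33 rose and 3 fell between 10–15 h and 25–40 h, with a median of 1.09, against 0.50 for all loci, and 7 rose and 4 fell afterwards. In females 1 was higher and 2 were lower at 10–15 h, where 1.84% and 7.23% of all loci were. At 25–40 h 5 were higher and none lower, where 7.96% and 6.68% of all loci were, with a median of 0.28 against -0.03. Among 8 tested loci with an eIF symbol 5 rose over the first interval. The 1 that fell was *EIF2AK4*, a kinase that phosphorylates an initiation factor and is not one itself. *EIF2AK4* was also 1 of the 2 lower in females at 10–15 h, the other being *eIF3-S8*, a subunit of an initiation factor. Of 10 loci with a symbol listed for ribosome assembly, among them *Rrp1*, 6 rose and none fell over the first interval and 3 fell over the second. The role of each was not checked beyond its symbol. *Fib*, the nucleolar enzyme fibrillarin, had 28.1 and 28.5 FPKM in the female and 16.7 and 22.7 FPKM in the male libraries at 10–15 h, and 354 and 221 FPKM in the female, against 277 and 273 FPKM in the male libraries at 25–40 h. Both tested genes of RNA polymerase I, which makes the large ribosomal RNA precursor, rose over the first interval. *EF1-alpha*, which brings tRNA to the ribosome and is also used as a reference gene, had 1294 and 1035 FPKM in the female and 1013 and 883 FPKM in the male libraries at 10–15 h, and 5141 and 4765 FPKM in the female, against 4109.6 and 2929 FPKM in the male libraries at 25–40 h. Its sex difference at 25–40 h was 0.51 and did not pass (adjusted p = 0.304 by limma). The other locus with an elongation factor symbol, *Ef-1a-f1*, was higher in females at that age, with 30.1 and 47.3 FPKM in the female, against 7.01 and 6.76 FPKM in the male libraries and a difference of 2.30 (adjusted p = 0.000598). Both loci rose over the first interval. *EIF2AK4*, *eIF3-S8* and *Ef-1a-f1* were named after their values were seen.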

How the data were processed

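The files hold FPKM as the authors deposited them, 1 value per locus and library beside its bounds and an estimate status. The processing notes of the submitters name TopHat2, Bowtie2 2.2.6 and Cufflinks 2.2.1. A build was not given in the sources used here, and RefSeq sequences were not used here. FPKM rest on transcript length and on all mapped fragments, so abundant transcripts that grow lower all others. Values were taken as log2(FPKM + 1) without rescaling. A model of 6 group means was fitted to the 12 libraries (R 4.3.3, limma 3.58.1, variance trend) over 10105 loci of valid status and a mean of at least 1 FPKM. Adjustment was after Benjamini and Hochberg (threshold 0.05). Relative values subtract the median of the 49 in each library and were fitted likewise. The fit was tested on simulated data with independent normal noise and few changed loci. That simulation held no shifts of scale between libraries, so it does not bear on results that depend on scaling. Tables and figures used Python 3.11.15, pandas 2.3.3, numpy 2.4.6 and matplotlib 3.10.9.

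The members and the lists of other genes were chosen with earlier results of these data known. Named members were the 2 highest and 2 lowest of each subunit, the 3 largest and 3 smallest differences of the main comparisons, up to 5 called in a sex difference at 10–15 h or 55–70 h, up to 4 called in each direction on the relative scale, the 3 widest and 3 narrowest relative ranges, the stalk genes and *RpL32*. *RpS6*, also on the rule, is not among the 49. A few members entered every fit and count but are not reported here by name. Members named by count, and *Fib* and *EF1-alpha*, were named after their values were seen. Alternatives were pseudocounts of 0.1 and 5, filters, scalings, the midpoint of the bounds, a replicate block, no variance trend, another centre, a fit of only the libraries compared, and each library left out.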

Additional observations from a re-analysis of the deposited data

Results flagged for a closer look

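A test of the difference between ages flagged the sex difference in the counts and members given here, all on the log2(FPKM + 1) scale. From 10–15 h to 25–40 h the female minus male difference grew in 7 of the 49 loci by limma, where it grew in 4.21% and shrank in 3.29% of all loci. Among the named members it grew by 1.58 for *RpLP0*, 1.51 for *RpL24*, 1.40 for *RpL3* and 1.19 for *RpL7*.

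From 25–40 h to 55–70 h the difference shrank in 9 of the 49 loci, where it shrank in 5.54% and grew in 2.95% of all loci. Both counts moved with single libraries, as given above. The change was -1.76 for *RpLP0*, -1.31 for *RpL3*, -1.24 for *RpS7*, -1.19 for *RpL9* and -1.06 for *RpL27A*. Both tests use the 25–40 h libraries, so they are not independent of each other, and groups of 2 libraries were too small for a check of single samples.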

How the results depend on the processing

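Counts of members called, against those of the report, were as follows. Higher in females at 10–15 h (3): 0 with no filter, 7 with median-ratio scaling, 14 with quantile normalization, 6 rescaled to the same sum, 5 rescaled to the sum of the other loci, 0 fitted on the compared libraries alone, and 1 with no variance trend. At 25–40 h (43): 18 with quantile normalization and 0 on the compared libraries alone. Averaged over ages (37): 17 with no filter and 17 with quantile normalization. From 25–40 h to 55–70 h, the 36 rises were 21 with median-ratio scaling, and the single fall became 2 with quantile normalization and 2 rescaled to the same sum. Growth of the sex difference (7): 12 with a pseudocount of 0.1, 12 with a filter of 5 FPKM, 1 with no filter, 2 with quantile normalization, 16 rescaled to the sum of the other loci, 2 on the compared libraries alone, 3 with no variance trend, and 13 with the midpoint of the bounds. Its later decrease (9): 4 with no filter, 1 with median-ratio scaling, 2 on the compared libraries alone and 4 with no variance trend. Relative to the family, the 2 lower in females at 25–40 h were 1 with the replicate block, 6 with the midpoint and 5 centred on the mean, and the 5 late losses were 8 with either of the last. The cause was not tested, except that a fit of fewer libraries has fewer degrees of freedom. Fitted on the compared libraries alone, the sexes at 10–15 h and at 25–40 h gave 0 calls over all loci as well.

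With 1 library left out, the counts ran from 0 to 4 at 10–15 h, 13 to 44 at 25–40 h, 0 to 0 at 55–70 h and 3 to 38 averaged over ages. They ran from 48 to 49 and 32 to 40 for the rises with age, with 1 fall in each fit, from 1 to 18 for growth and 1 to 12 for decrease of the sex difference. Relative to the family they ran from 0 to 4 and 0 to 3 by sex at 25–40 h, 15 to 17 and 25 to 26 for early gains and losses, and 6 to 14 and 3 to 6 for late ones. Where a group then held 1 library, it was assumed to vary like the others. Calls over all loci changed in number in these fits as well.

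Direction turned for *RpS16* between the sexes at 25–40 h (-0.066, quantile normalization), for *RpL27A* (-0.23 and -0.29) and *RpL31* (-0.028 and -0.15) from 10–15 h to 25–40 h (median-ratio scaling and quantile normalization), and for *Rpl41* from 25–40 h to 55–70 h (-0.20, quantile normalization). Replicate numbers did not pair the samples: over 15 pairs of groups, deviations of same-numbered libraries correlated at -0.28 to 0.17, above 0.1 in 3. With the replicate block the counts were 3, 43, 0 and 34 for the sexes, 49 and 37 for the rises, and 8 and 7 for growth and decrease. Depth in reads is unknown, so the counting error of low loci cannot be given.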
